A study of Mus musculus with 6 samples.

Results

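The Hox cluster genes encode homeodomain transcription factors and lie in 4 genomic clusters, Hoxa to Hoxd. Members were the rows of the spleen count table whose Ensembl identifier maps to a symbol made of Hoxa, Hoxb, Hoxc or Hoxd and a number alone. Of 39 such symbols, 31 had a row among the 31771 genes of the table: 10 of Hoxa, 10 of Hoxb, 5 of Hoxc and 6 of Hoxd. Hoxa11, Hoxc10, Hoxc11, Hoxc12, Hoxc13, Hoxd1, Hoxd11 and Hoxd12 were not analysed here. RNA was sequenced from 6 samples of spleen pieces of C57BL/6 mice, 3 mutants and 3 controls. The mutants carried VEC-Cre (Cre recombinase under the promoter of VE-cadherin, Cdh5, active in endothelium and in blood cells that arise from it), the SB Transposase (Sleeping Beauty) and onc2 (a transposon that can activate or disrupt genes where it inserts). The controls are labelled WT, with no transgene named, and no age is given for either group. Each mutant can carry its own insertions, so the mutants need not resemble each other. Each library held 72902118 to 79258116 counts, and 1 count was worth 0.0126 to 0.0137 CPM (the standard scaling of a count to its library total). Xist, the RNA that silences one X chromosome in females, was at 1513 and 580 CPM in mutant spleens 1 and 2 and at 0.423 to 0.663 CPM in mutant 3 and the controls, so mutants 1 and 2 also differed from the controls in a sex marker.

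Hox proteins give cells along the body axis their regional identity, and the order of the genes in a cluster follows the order of their use along that axis. Genes with the same number in different clusters are paralogues, copies of an ancestral gene. In blood, Hoxa and Hoxb genes are known for their expression in stem and progenitor cells and for its decline as these cells mature, and Hoxa9, Hoxb4 and Hoxb8 are known to expand progenitors or block their maturation when forced on. Hox proteins bind DNA together with the TALE homeodomain proteins Pbx and Meis. The enzyme encoded by Kmt2a (MLL1) keeps Hox genes on, and Polycomb complexes keep them off.

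The homeobox, which encodes the DNA-binding homeodomain, is the part that paralogues share most. The last 60 bases of the homeobox are shown for Hoxc4, the gene with the widest gap between groups, beside its paralogue Hoxa4, and for the members of group 8, of which Hoxb8 and Hoxd8 stood out in mutant 3. They were read from GENCODE M21 transcripts, in the direction of the gene. Capitals mark the 18 bases that encode a run of 6 residues in the helix that contacts DNA.
Hoxa4: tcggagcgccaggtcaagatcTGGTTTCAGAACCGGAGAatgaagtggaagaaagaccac
Hoxc4: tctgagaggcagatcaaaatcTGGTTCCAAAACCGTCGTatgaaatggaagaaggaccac
Hoxb8: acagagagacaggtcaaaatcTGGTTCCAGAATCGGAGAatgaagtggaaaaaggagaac
Hoxc8: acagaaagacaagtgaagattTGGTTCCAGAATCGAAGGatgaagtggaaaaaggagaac
Hoxd8: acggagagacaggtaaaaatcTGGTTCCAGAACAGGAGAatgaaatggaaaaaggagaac
Over these 60 bases Hoxa4 and Hoxc4 differed at 12 positions, and Hoxb8 and Hoxd8 at 5. Over the whole homeobox of 180 bases the identity was 78.9% for Hoxa4 and Hoxc4 and 80.6% for Hoxb8 and Hoxd8. The longest run of identical bases that any of their annotated transcripts shared was 17 bases for the first pair and 32 bases for the second. Hoxb9 and Hoxc9 shared a run of 50 bases, the longest among the paralogue pairs compared. Read length is not given in the sources used here, and a read that lies wholly within such a run cannot be assigned to 1 paralogue.

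Hox transcripts were scarce in these spleens. All members together took 21.3, 21.03 and 23.2 CPM in control spleens 1, 2 and 3, and 18.1, 16.5 and 36.2 CPM for mutants 1, 2 and 3. Mutant 3 lay above every control and the other two mutants below every control. In bulk tissue, fewer cells of a type and less RNA per cell cannot be told apart. Of the 31 members, 19 had at least 30 counts over the 6 libraries and 17 passed the filter on low counts. The summed count of those 17 ranged from 70 to 3699 with a median of 333, against a median of 5160 over all 19573 genes tested.

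**Figure D1:**
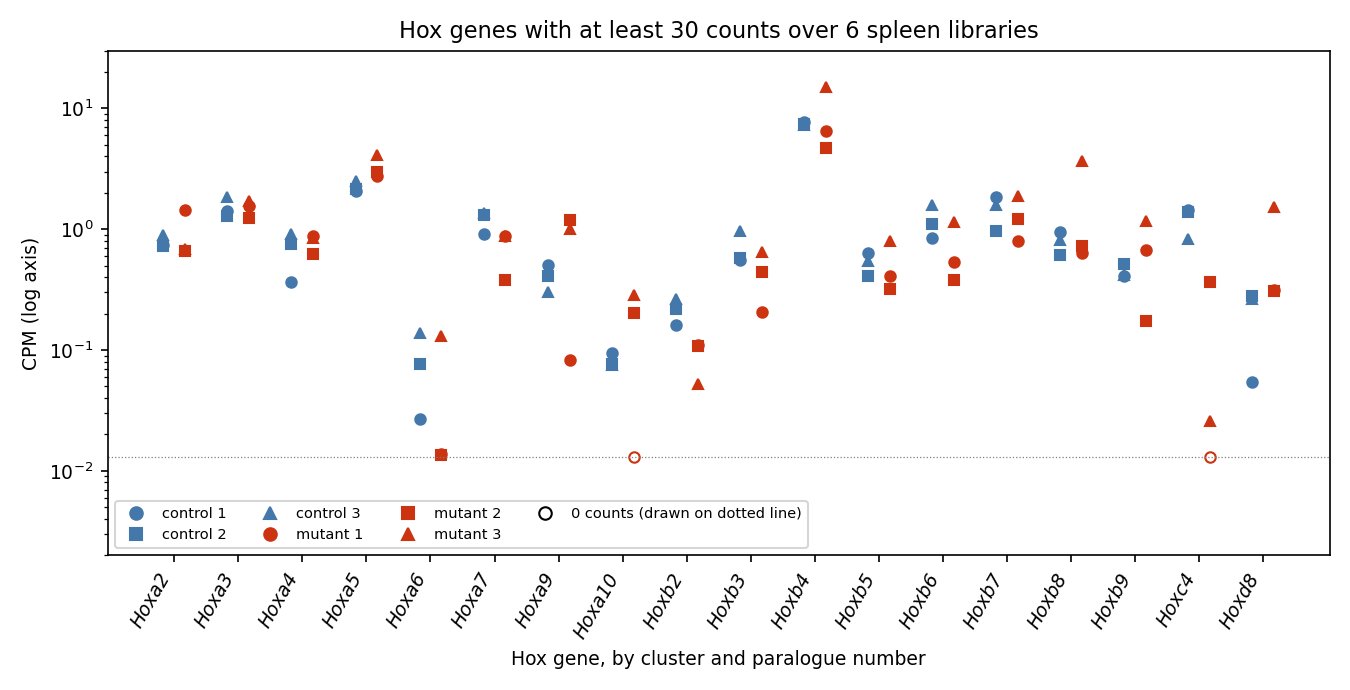
CPM on a log axis of 18 Hox genes with at least 30 counts, with 1 point for each library (blue, controls; red, mutants; open symbols, 0 counts). Hoxb8 and Hoxd8 stood out in mutant 3, and the 3 mutants lay below the controls for Hoxc4. Equal symbols in the 2 groups do not mark paired samples.

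No Hox gene passed the test between mutants and controls. By edgeR's quasi-likelihood test with Benjamini-Hochberg adjustment over all genes, 0 of the 17 tested were higher and 0 lower, where 5.08% of all genes tested were higher and 6.9% lower. At an unadjusted p under 0.05 the counts were also 0 and 0. DESeq2, limma-voom and limma-voom with sample weights gave 0 higher and 0 lower as well, with 1 gene lower in each at an unadjusted p under 0.05. Over all genes those tools called 10.3%, 4.99% and 9.29% higher and 11.1%, 9.96% and 9.36% lower. The median log2 fold change of the 17 was 0.21 (0.10 over all genes tested), with 9 above 0 and 8 below. In 5 of them the groups did not overlap, 2 with mutants higher (18% of all genes tested) and 3 with mutants lower (22.6%), where 40.5% of all genes tested had groups apart in either direction. These were Hoxa5 and Hoxd8, and Hoxa7, Hoxb2 and Hoxc4. Differences within the spread between mutants were not detectable.

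The mutants differed among themselves. The coefficient of variation of the 17 genes had a median of 51.4% in mutants and 23.9% in controls (44.2% and 11.3% over all genes tested). It was larger in the mutants for 14 of the 17 and for 17419 of all 19573 genes tested, so this was not particular to Hox genes. Of the 17, 11 had their highest mutant value in mutant 3 (33% of all genes tested had it there), and 3 each had it in mutants 1 and 2 (36.1% and 30.9%). In mutant 3, 8 of the 17 lay above every control (43.5% of all genes), and 5 of these were also at 2 or more times the control mean (16.3%). Those 5 were Hoxd8, Hoxb8, Hoxb9, Hoxa9 and Hoxb4. Another 4 lay below every control there (42.6%), 2 of them at 0.5 times the control mean or less (25.6%). In mutant 1, 4 lay above every control (42.7%) and 8 below (45.2%), and in mutant 2, 3 lay above (36.5%) and 10 below (47.3%). At 0.5 times the control mean or less were 4 in mutant 1 (27.6%) and 5 in mutant 2 (20.9%), and at 2 or more times it 0 (18.3%) and 1 (15.2%).

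**Figure D2:**
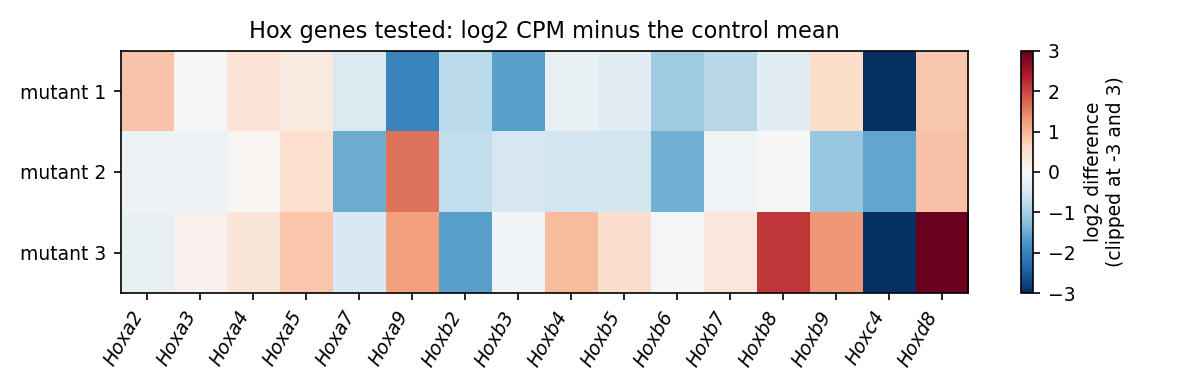
Log2 CPM (scaled with TMM factors, prior count 2) of each mutant minus the mean of the controls, for 16 of the Hox genes tested, with red above and blue below the controls and colours clipped at -3 and 3. Mutant 3 differed from the control mean by 2.15 for Hoxb8 and 2.96 for Hoxd8, Hoxa9 was at -1.97 in mutant 1 and 1.63 in mutant 2, and Hoxc4 was below the controls in every mutant.

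On GRCm38 the clusters lie on chromosome 6 (Hoxa), chromosome 11 from 96194316 to 96368256 (Hoxb), chromosome 15 from 102921103 to 103036852 (Hoxc) and chromosome 2 from 74668310 to 74765142 (Hoxd). Hoxb held the largest part of Hox counts in both groups, 58.9 ± 2.80% in controls and 56.9 ± 9.35% in mutants (mean ± SD, n = 3), followed by Hoxa with 33.1 ± 3.44% and 39.1 ± 10.2%. Hoxc took 6.46 ± 1.59% in controls and 0.947 ± 1.17% in mutants, and Hoxd 1.47 ± 0.0555% and 3.05 ± 1.76%. The Hoxa sum was 6.21, 7.29 and 8.24 CPM in control spleens and 7.75, 7.76 and 10.03 CPM for mutants 1, 2 and 3. The Hoxb sum was 13.2, 11.9 and 13.5 CPM in control spleens and 9.89, 8.07 and 24.3 CPM for mutants 1, 2 and 3. The Hoxc sum was 1.56, 1.57 and 1.07 CPM in control spleens and 0.0823, 0.376 and 0.0391 CPM in mutant spleens. Only for Hoxc did the 2 groups of cluster sums not overlap.

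**Figure D3:**
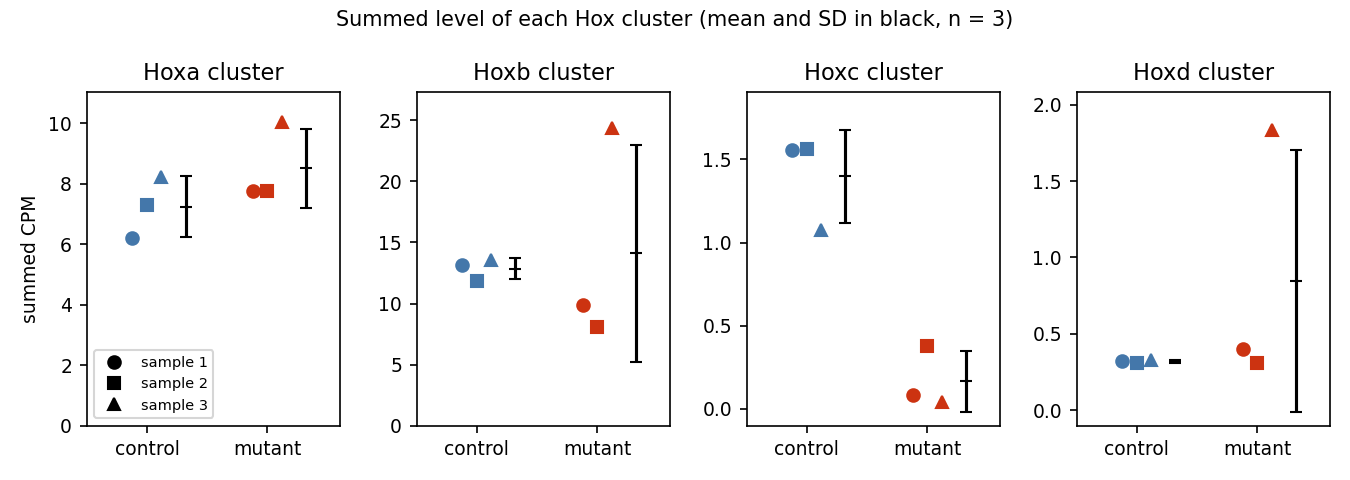
Summed CPM of the members of each cluster, with 1 point for each sample, and the mean and SD of each group in black (n = 3). Hoxa, Hoxb and Hoxd were each highest in mutant 3 (10.03, 24.3 and 1.84 CPM), and the mutants lay below the controls for Hoxc.

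Levels of different genes were compared per kilobase of annotated exon. Hoxb4 led in controls at 2.91 ± 0.0898 CPM per kb, and its controls did not overlap those of Hoxa5, the next at 1.20 ± 0.127. Hoxb7 (0.951 ± 0.297), Hoxb6 (0.600 ± 0.187) and Hoxc4 (0.476 ± 0.132) followed. Of the 30 pairs of neighbours in this order, 29 overlapped between controls. In mutants Hoxb4, Hoxa5 and Hoxb7 kept the first ranks at 3.40 ± 2.13, 1.75 ± 0.399 and 0.838 ± 0.353 CPM per kb, Hoxb8 stood at rank 4 by its mean (9 in controls), Hoxd8 at 8 (16) and Hoxc4 at 17 (5). The ranks of Hoxb8 and Hoxd8 rest on mutant 3: per kb, Hoxb8 was at 0.239, 0.276 and 1.40 CPM and Hoxd8 at 0.115, 0.113 and 0.555 CPM for mutants 1, 2 and 3.

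Among the genes at the anterior end, paralogue groups 1 to 4, the sum was 12.7, 12.9 and 13.2 CPM in control spleens and 10.9, 8.59 and 19.3 CPM for mutants 1, 2 and 3. Most of these counts came from Hoxb4, a factor known for promoting self-renewal of blood stem cells (ENSMUSG00000038692, chromosome 11, 96318267 to 96321638). Hoxb4 stood at 7.71, 7.44 and 7.25 CPM among controls, and at 6.53, 4.71 and 15.0 CPM for mutants 1, 2 and 3 (570, 580 and 575 counts against 476, 350 and 1148). The controls were close together, mutants 1 and 2 lay below them and mutant 3 above (log2 fold change 0.21 ± 0.45 SE, adjusted p = 0.783). Without mutant 3 the log2 fold change turned to -0.38 (adjusted p = 0.372). Over the other scalings, filters and tools and with any 1 library left out, the adjusted p ran from 0.372 to 0.922.

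Hoxc4, a factor expressed in lymphocytes (ENSMUSG00000075394, chromosome 15, 103018934 to 103036852), showed the widest gap between groups. Its counts were 107, 108 and 66 in the controls, or 1.45, 1.39 and 0.833 CPM, and 0, 27 and 2 in mutants 1, 2 and 3, or 0, 0.363 and 0.0261 CPM. The groups did not overlap, yet the spread between mutants was large and the difference did not pass (log2 -3.16 ± 1.37, adjusted p = 0.177). Without mutant 2 it fell and passed (log2 -6.40 ± 0.996, adjusted p = 0.0127, where 15.3% of all genes fell), as the 1 Hox gene that passed with a single library left out. Over the other settings that kept at least 2 mutants its adjusted p ran from 0.0507 (limma-voom) to 0.363, with the same direction in each. Mutant 2 was also the mutant with the most T-cell marker RNA. The summed level of 5 T-cell markers was 360 to 455 CPM in control spleens and 252 CPM in mutant 2. It was 9.75 and 11.2 CPM in mutant spleens 1 and 3. Of the 5, 4 were apart between groups and lower in mutants (22.6% of all genes tested). Most of the sum in mutant 2 was Cd4, the marker that was not apart, with 14654 counts there against 6624 to 7925 in the controls. The summed level of 4 B-cell markers was 3518 to 4017 CPM in control spleens and 80.3, 52.5 and 30.6 CPM for mutants 1, 2 and 3. Among the mutants it was highest in mutant 1, where Hoxc4 had 0 counts. All 4 were apart and lower (22.6% of all genes tested), and no marker of either list was at 0 in all mutants. The part of lymphocyte content in the Hoxc4 values was not tested.

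The 4 other Hoxc genes in the table had at most 6 counts in any library. Hoxc5 had 1, 5 and 3 counts in the controls and 0 in each mutant, which allows up to 0.0391 to 0.0412 CPM per library. Hoxc9 had 2, 4 and 5 counts in the controls and 1, 0 and 0 in mutants 1, 2 and 3. These counts were too low for the test.

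Hoxb2 and Hoxb3, neighbours of Hoxb4 that pattern the hindbrain, were lower in level in the mutants without passing. Hoxb2 had 12, 17 and 21 counts in the controls and 8, 8 and 4 in mutants 1, 2 and 3, and the groups did not overlap (0.215 ± 0.0514 and 0.0898 ± 0.0327 CPM, log2 -1.22 ± 0.53, adjusted p = 0.178). Hoxb3 was at 0.555, 0.577 and 0.972 CPM in control spleens and 0.206, 0.444 and 0.651 CPM for mutants 1, 2 and 3 (log2 -0.68 ± 0.54, adjusted p = 0.439), with overlap. Both are uncertain, because 27.3% of the exon length of Hoxb2 and 52.9% of that of Hoxb3 lie opposite the antisense gene Hoxb3os and the strand setting of the counting is not given in the sources used here. Hoxb3os itself had 66, 30 and 54 counts in the controls and 4, 24 and 12 in mutants 1, 2 and 3 (adjusted p = 0.156).

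The anterior Hoxa genes differed less. Hoxa3 was at 1.41, 1.30 and 1.85 CPM in control spleens and 1.56, 1.24 and 1.71 CPM for mutants 1, 2 and 3 (log2 -0.01 ± 0.35, adjusted p = 0.990). Hoxa4 stood at 0.365, 0.757 and 0.908 CPM in control spleens and 0.878, 0.618 and 0.847 CPM in mutant spleens (log2 0.22 ± 0.46, adjusted p = 0.779). Every mutant lay within the range of the controls for Hoxa4, and all but mutant 2, just below it, for Hoxa3. For Hoxa4, 255 of 1594 exon bases lie opposite the antisense gene Gm29430. For Hoxa3, 503 of 6014 lie opposite Hoxaas2, the largest of its antisense overlaps. Hoxa2 was at 0.744, 0.731 and 0.896 CPM among controls, and at 1.45, 0.659 and 0.690 CPM for mutants 1, 2 and 3 (adjusted p = 0.742). For it mutant 1 stood above every control and mutants 2 and 3 below every control. Hoxb1 had 2 counts, all in control 2. Hoxd3 had 1 count in control 1 and 1 in mutant 3, and Hoxd4 had 15, 2 and 5 counts in the controls and 0, 0 and 2 in the mutants. Both are uncertain, since 53.1% and 39.1% of their exon lengths are shared with Gm28230, annotated on the same strand.

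Paralogue groups 5 to 8, in the middle of the clusters, summed to 7.46, 7.04 and 8.98 CPM in control spleens and 6.39, 6.33 and 14.2 CPM for mutants 1, 2 and 3. Hoxa5, which influences the choice between myeloid and erythroid fate in progenitors, was at 2.08, 2.14 and 2.52 CPM in control spleens and 2.74, 2.98 and 4.14 CPM for mutants 1, 2 and 3. Every mutant lay above every control, by a margin that was small beside the spread (log2 0.56 ± 0.34, adjusted p = 0.314). Hoxa7, another gene of the cluster that leukaemias activate, was the reverse case, at 0.920, 1.32 and 1.35 CPM in control spleens and 0.878, 0.376 and 0.886 CPM in mutant spleens (log2 -0.75 ± 0.45, adjusted p = 0.306). Of the exon length of Hoxa7, 20.4% lies opposite the antisense gene Hoxaas3, at 1.16 ± 0.151 CPM in control spleens and 1.82, 0.471 and 0.391 CPM for mutants 1, 2 and 3.

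Hoxb8, which blocks myeloid maturation when forced on (ENSMUSG00000056648, chromosome 11, 96281905 to 96285315), set mutant 3 apart. It had 70, 48 and 65 counts in the controls and 46, 54 and 283 in mutants 1, 2 and 3, or 0.947, 0.616 and 0.820 CPM against 0.631, 0.726 and 3.69 CPM. Mutants 1 and 2 were within the range of the controls and mutant 3 was at 4.64 times their mean. The test over all samples did not pass (log2 1.06 ± 0.76, adjusted p = 0.384), and without mutant 3 the log2 fold change was -0.18 (adjusted p = 0.781). Over all settings that kept at least 2 mutants the adjusted p ran from 0.192 to 0.781.

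Hoxd8, its paralogue on chromosome 2 (ENSMUSG00000027102, 74704615 to 74707933), was at 0.0541, 0.282 and 0.265 CPM in control spleens and 0.315, 0.309 and 1.52 CPM for mutants 1, 2 and 3. Every mutant lay above every control, but mutants 1 and 2 did so narrowly, and mutant 3 was at 7.60 times the control mean (log2 1.81 ± 0.90, adjusted p = 0.228). Hoxd9, the next gene of the cluster, had 0 counts in every control, which allows up to 0.0379 to 0.0406 CPM, and 2, 0 and 20 counts in mutants 1, 2 and 3, with mutant 3 at 0.261 CPM. Of the remaining Hoxd genes, Hoxd10 had 1 count, in mutant 3, and Hoxd13 had 4 counts in control 1 and 4 in mutant 1.

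The bases just upstream of Hoxb8 and Hoxd8 are shown because these paralogues were both highest in mutant 3. Each window holds the 250 bases before the RefSeq start on GRCm38.p6, plus strand, chr11:96281655-96281904 for Hoxb8 and chr2:74704365-74704614 for Hoxd8, and neither overlaps an annotated exon.
Hoxb8: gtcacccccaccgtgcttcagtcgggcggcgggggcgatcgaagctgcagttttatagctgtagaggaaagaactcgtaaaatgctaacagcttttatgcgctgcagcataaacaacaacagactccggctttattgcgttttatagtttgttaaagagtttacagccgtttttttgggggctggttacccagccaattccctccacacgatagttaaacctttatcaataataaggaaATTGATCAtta
Hoxd8: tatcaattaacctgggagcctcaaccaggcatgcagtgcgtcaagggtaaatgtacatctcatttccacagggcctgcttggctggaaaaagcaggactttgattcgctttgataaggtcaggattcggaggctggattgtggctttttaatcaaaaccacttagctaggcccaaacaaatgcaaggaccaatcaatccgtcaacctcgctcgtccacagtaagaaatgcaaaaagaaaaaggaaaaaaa
Capitals mark a match to TGATNNAT, a composite site of Pbx with a Hox protein, searched on both strands. It was found 1 time in the Hoxb8 window, on the opposite strand, and not in the Hoxd8 window. TGACAG, the core bound by Meis and Pknox proteins, was found in neither, and the 2 motifs do not overlap here. Of 32851 RefSeq windows of this length 7.68% held TGATNNAT and 15.9% held TGACAG. Of 24 windows of Hox genes, which covered 22 genes and 18 of the 31 members, 4 held the first and 2 the second.

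The other Hoxb genes of the middle groups followed the same ranking of mutants only in part. Hoxb5 was at 0.636, 0.411 and 0.543 CPM in control spleens and 0.412, 0.323 and 0.795 CPM for mutants 1, 2 and 3 (adjusted p = 0.940). Hoxb6, expressed in erythroid precursors and skin, was at 0.853, 1.10 and 1.58 CPM in control spleens and 0.535, 0.376 and 1.15 CPM in mutant spleens (log2 -0.78 ± 0.52, adjusted p = 0.352). Hoxb7 was at 1.85, 0.962 and 1.59 CPM in control spleens and 0.796, 1.21 and 1.88 CPM in mutant spleens (adjusted p = 0.829). In each of these genes mutant 3 was the highest mutant, and for Hoxb6 and Hoxb5 mutant 2 was the lowest. Hoxa6 had 2, 6 and 11 counts in the controls and 1, 1 and 10 in mutants 1, 2 and 3, and Hoxc6 and Hoxc8 at most 6.

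Groups 9 to 13, at the posterior end, summed to 1.14, 1.05 and 0.946 CPM in control spleens and to 0.850, 1.59 and 2.75 CPM for mutants 1, 2 and 3. Hoxa9, a stem and progenitor factor that drives myeloid leukaemia together with Meis1 (ENSMUSG00000038227, chromosome 6, 52223100 to 52231089), had 37, 32 and 24 counts in the controls and 6, 89 and 77 in mutants 1, 2 and 3. That is 0.501, 0.411 and 0.303 CPM against 0.0823, 1.20 and 1.003 CPM, so mutant 1 lay below every control and mutants 2 and 3 above (log2 0.93 ± 0.91, adjusted p = 0.523). Hoxa10, its neighbour with a like role, had 7, 6 and 6 counts in the controls and 0, 15 and 22 in mutants 1, 2 and 3, the same arrangement at lower counts. Hoxb9 was at 0.406, 0.513 and 0.416 CPM in control spleens and 0.672, 0.175 and 1.16 CPM in mutant spleens, with mutant 2 below and the others above the controls (adjusted p = 0.606). Hoxb13 had at most 7 counts and Hoxa13 at most 1 count in any library.

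Mutant 3 was compared with the controls on its own as an alternative chosen after the data were seen, because it lacked the Xist signal of the other mutants. It compares 1 library with 3 and assumes that it varies like the controls. The mutants varied more than the controls, with a median coefficient of variation of 44.2% against 11.3% over all genes tested. For the Hox genes tested it was 51.4% against 23.9%. Passing in that comparison is thus judged against the scatter of the controls alone. Hoxa5, Hoxb4, Hoxb8, Hoxb9, Hoxd8 and Hoxd9 passed as higher and Hoxc4 as lower, 6 and 1 of 21 Hox genes tested. The log2 fold change there was 0.96 for Hoxb4, 2.17 for Hoxb8 and -5.51 for Hoxc4. Of all genes, 25.7% passed as higher and 26.9% as lower in that comparison. Mutant 3 also held the most megakaryocyte marker RNA, 4792 CPM over 6 markers against 2793 and 663 CPM in mutant spleens 1 and 2. Control spleens held 220 to 399 CPM, and 4 of the 6 markers were apart and higher in mutants (18% of all genes tested). Itga2b (2944 CPM) and Pf4 (1308 CPM) carried that sum in mutant 3, while Mpig6b was at 1.80 CPM there against 10.8 to 18.7 CPM in control spleens and Gp9 (65.6 CPM) was below mutant 1 (142.7 CPM). Cdh5 was at 164 CPM in mutant 3 against 38.9 to 44.6 CPM in the other libraries. Over 6 endothelial markers, Cdh5 among them, the sum was 648 CPM in mutant 3 and 494 to 551 CPM in control spleens. Pecam1 went the other way, at 126 CPM in mutant 3 against 292 to 318 CPM in control spleens. Of the 6, 1 was apart and higher in mutants and 1 lower (18% and 22.6% of all genes tested). The part of these markers in the Hox values was not tested.

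Among the TALE partners, the homeodomain proteins that bind DNA with Hox proteins, 1 of 9 rose and 0 fell (5.08% and 6.9% of all genes tested), with a median log2 fold change of -0.33 against 0.10 over all genes. Pbx3, known as a partner of Hoxa9 in leukaemia, rose from 12.8, 12.5 and 13.5 CPM in control spleens to 45.8, 31.9 and 32.6 CPM for mutants 1, 2 and 3 (log2 1.51 ± 0.21, adjusted p = 0.0133). All mutants were far above all controls. Meis1, the partner of Hoxa9, was at 8.89 to 11.8 CPM in control spleens and 259, 9.16 and 2.20 CPM for mutants 1, 2 and 3 (adjusted p = 0.241). The mutant with the most Meis1 was thus the mutant with the least Hoxa9 and Hoxa10. The summed level of 10 stem and progenitor markers was 152 to 169 CPM in control spleens and 920, 123 and 308 CPM for mutants 1, 2 and 3. Of these markers 1 was apart and higher in mutants and 4 lower (18% and 22.6% of all genes tested). Their part in the Hox and partner values was not tested.

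**Figure D4:**
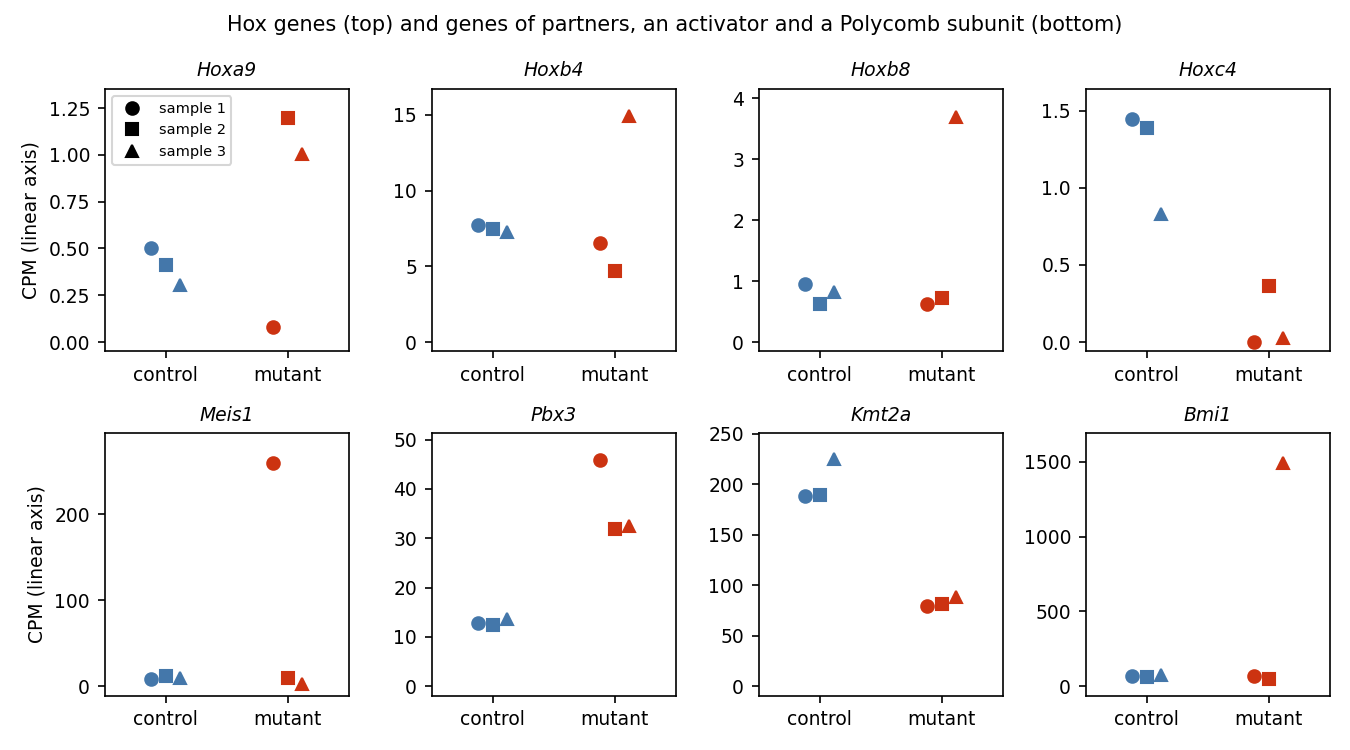
CPM on linear axes of Hoxa9, Hoxb4, Hoxb8 and Hoxc4 (top) and of Meis1, Pbx3, Kmt2a and Bmi1 (bottom), with 1 point for each sample (blue, controls; red, mutants). Pbx3 and Kmt2a separated the groups in all samples, Meis1 was highest in mutant 1 (259 CPM), where Hoxa9 was lowest (0.0823 CPM), Bmi1 was highest in mutant 3 (1494 CPM), and equal symbols do not mark pairs.

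Of 18 activators of Hox transcription in the table, 16 were tested, 0 rose and 1 fell, or 6.25% called against 12% of all genes tested, with a median log2 of -0.0012. Kmt2a, which methylates histones at Hox genes, fell from 188, 190 and 225 CPM in control spleens to 79.2, 81.5 and 88.0 CPM for mutants 1, 2 and 3 (log2 -1.26 ± 0.15, adjusted p = 0.00940). The mutants were close together and all below the controls. Counts of most Hox genes were low, and a bearing of Kmt2a on Hox levels was not tested. Npm1, a nucleolar protein and the member of highest CPM, was at 557 ± 8.14 CPM in control spleens and 1152 ± 557 CPM in mutant spleens (adjusted p = 0.127). The factors Cdx1 and Cdx4, which act on Hox genes in embryos, had at most 3 counts in any library.

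Of 22 Polycomb genes 1 rose and 4 fell, or 22.7% against 12% of all genes (5.08% higher and 6.9% lower), with a median log2 of -0.12. Ezh2, the methyltransferase of repressive complex PRC2 in dividing cells, rose from 43.1 ± 5.37 to 95.2 ± 5.50 CPM (log2 1.15 ± 0.18, adjusted p = 0.0163), and Ezh1, its counterpart in resting cells, fell to 52.6 ± 6.72 from 89.3 ± 3.39 CPM (log2 -0.75 ± 0.18, adjusted p = 0.0478). Phf1, a PRC2 accessory protein, fell by 2.38 ± 0.25 on the log2 scale, and Cbx7 and Cbx8, chromodomain readers of PRC1, fell by 2.32 ± 0.35 and 1.07 ± 0.25 (adjusted p = 0.00745, 0.0160 and 0.0464). Bmi1, a core PRC1 subunit, had the highest mean CPM over the 6 libraries through mutant 3 alone, while Phf1 led in controls (257 CPM) and Rbbp4 in mutants 1 and 2 (223 CPM in mutant 2). Bmi1 was at 63.5 to 76.6 CPM in control spleens and 68.1, 49.4 and 1494 CPM for mutants 1, 2 and 3 (adjusted p = 0.196). The mutant with the highest Bmi1 was the mutant with the highest Hoxb8, Hoxd8 and Hoxd9. That mutant was also the highest for 11 of the 17 Hox genes tested and for 33% of all genes tested. A link between Bmi1 and Hox levels was not tested.

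In the retinoic acid pathway, which sets Hox expression in embryos, 2 of 15 tested genes rose and 1 fell, or 20% against 12% of all genes (5.08% higher and 6.9% lower), with a median log2 of -0.46. Cyp26b1, which degrades retinoic acid, rose from 2.02 ± 0.509 to 7.03 ± 1.62 CPM (log2 1.81 ± 0.39, adjusted p = 0.0351). Dhrs3, which converts retinal back to retinol, rose from 31.4 ± 1.86 CPM to 493, 146 and 99.6 CPM for mutants 1, 2 and 3 (log2 2.97 ± 0.63, adjusted p = 0.0348). Stra6, a retinol transporter, fell from 7.01 ± 0.632 to 0.199 ± 0.123 CPM (log2 -5.14 ± 0.59, adjusted p = 0.00864). Of 14 tested genes listed as targets of Hoxa9 and Meis1, 1 rose and 0 fell, or 7.14% against 12% of all genes, with a median log2 of 1.10. It was Pim1, a survival kinase, from 95.7 ± 8.60 to 261 ± 34.9 CPM (log2 1.46 ± 0.21, adjusted p = 0.0138). Lmo2, a factor of blood progenitors, had the highest mean CPM over the 6 libraries, at 226 ± 4.01 and 435 ± 122 CPM (adjusted p = 0.0507), though Mef2c was higher in controls (244.6 CPM) and Cdk6 in mutants (460.4 CPM).

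Of 13 tested homeobox genes outside the clusters, 1 rose and 4 fell, or 38.5% against 12% of all genes (5.08% higher and 6.9% lower), with a median log2 of -1.20. En2, a midbrain patterning gene, rose from 4, 6 and 5 counts in the controls to 6141, 4392 and 4188 in mutants 1, 2 and 3 (log2 9.96 ± 0.35, adjusted p = 0.000393). Onc2 transposons are known to carry an En2 splice acceptor with part of an En2 exon, and reads from the transposon and from the gene cannot be told apart in these counts. Tlx1 and Nkx2-3, which spleen development needs, fell from 29.8 ± 2.10 to 10.99 ± 2.71 CPM and from 17.8 ± 2.05 to 6.44 ± 0.814 CPM (log2 -1.41 ± 0.27 and -1.45 ± 0.26, adjusted p = 0.0277 and 0.0225). Msx1 and Barx1, genes of mesenchyme, fell by 2.57 ± 0.42 and 2.98 ± 0.69 on the log2 scale (adjusted p = 0.0184 and 0.0432). Hhex, with the highest mean CPM over the 6 libraries, was at 114 ± 11.9 and 52.4 ± 21.4 CPM (adjusted p = 0.0590). The summed level of 14 markers of spleen mesenchyme was 543 to 684 CPM in control spleens and 164, 574 and 363 CPM for mutants 1, 2 and 3. Of the 14, 9 were apart and lower in mutants (22.6% of all genes tested) and 1 (Pdgfrb) apart and higher (18%). Tlx1 and Nkx2-5 are on both the marker list and the homeobox list and were among the 9, so the lists are not independent. Lum was at 0 counts in mutant 1. Col1a1 and Col3a1 were above every control in mutant 2, at 152 and 72.0 CPM against 68.6 to 83.3 and 22.8 to 39.6 CPM. The part of these markers in the homeobox values was not tested.

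Transcripts that lie among the Hox genes, mostly antisense or unnamed, numbered 21 in the table, and of 12 tested 0 passed in either direction by edgeR (0 higher and 2 lower, Hoxb3os and Gm53, at an unadjusted p under 0.05, and a median log2 of -0.05). Hotairm1, a myeloid antisense RNA of the Hoxa cluster, was at 0.473 ± 0.0708 CPM in control spleens and 0.532 ± 0.126 CPM in mutant spleens. Gm11539, in the Hoxb cluster, had the highest CPM of them, at 1.57 ± 0.209 and 2.19 ± 0.873 CPM (adjusted p = 0.495). Among the 24 protein-coding genes nearest to the ends of the clusters, 23 were tested, 3 rose and 0 fell, or 13% against 12% of all genes (median log2 0.16). Cbx5, which encodes the heterochromatin protein HP1 alpha and flanks Hoxc, rose from 87.6 ± 5.51 to 194 ± 14.2 CPM (log2 1.15 ± 0.15, adjusted p = 0.0117). Atp5g1, beside Hoxb, encodes a subunit of mitochondrial ATP synthase, and Nfe2l2, beside Hoxd, encodes a factor of the oxidant response. They rose by 1.25 ± 0.23 and 0.83 ± 0.18 on the log2 scale (adjusted p = 0.0259 and 0.0356). Hnrnpa3, an RNA-binding protein gene and the neighbour of highest CPM, was at 394 ± 6.84 and 633 ± 155 CPM (adjusted p = 0.0914). These calls over partners, regulators and neighbours, 9 higher and 10 lower of 124 genes tested (15.3%, against 12% of all genes), were mostly lost when any single control was left out: 1 gene, En2, remained higher and 0 were lower. Of all genes, 0.0195% to 0.0392% were then higher and 0.581% to 0.636% lower.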

How the data were processed

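Spleen RNA in 3 mutant and 3 control samples was sequenced from poly-A selected, strand-marking libraries made from 50 ng of RNA, per the labels' protocols. The authors deposited raw counts per Ensembl gene. STAR 2.5.3a, limma and the builds mm10 and GRCm38 are named per the submitters' processing notes, without roles. The annotation release, counter and strand setting have no statement in the sources used here. Every gene of the table had a summed count of at least 1. Of 31771 identifiers 31669 matched a symbol and a GENCODE M21 position (GRCm38). All 6 columns matched a sample title, and the genotype label gave the groups. Samples were numbered in accession order, which pairs none of them. The labels do not say whether samples come from separate animals, so p-values measure the spread between samples.

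CPM are the deposited counts scaled to library totals, with no TMM factors. The test was edgeR 4.0.16 (R 4.3.3), with TMM factors, its expression filter, a robust quasi-likelihood fit and Benjamini-Hochberg adjustment at 0.05 over 19573 genes. Each SE was obtained as the size of the log2 fold change over the root of the F statistic. The procedure was tested on simulated counts. Alternatives were other scalings and filters, DESeq2 1.42.0, limma-voom (limma 3.58.1), haemoglobin and immunoglobulin genes left out, and each library left out.

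Values by library are given for the Hox genes with at least 30 counts. Results of 1 Hox gene and 1 partner, and some sequences, are not reported here, though both genes stay in counts, sums and medians. From each of 8 further lists (141 genes found) up to 4 passing members in each direction and the member of highest mean CPM over the 6 libraries are named. Meis1, Hotairm1, Hoxb3os, Hoxaas3, Cdx1 and Cdx4 were named after their values were seen. Members and lists were chosen with earlier results of these data known. Marker lists of mesothelium, pancreas, erythroid cells, granulocyte precursors and endothelium were summed too, at 1.80 to 8.35, 16.8 to 24.3, 39398 to 62821, 23.9 to 55.6 and 494 to 551 CPM in controls and 0.439 to 4.44, 9.13 to 51.5, 3248 to 35574, 350.4 to 581 and 350 to 648 CPM in mutants. The erythroid sum was mostly Hbb-bs, the 1 of 8 markers apart and lower in mutants (22.6% of all genes tested). Gata1, Epor and Tfrc were apart and higher (18%). Gata1 ranged from 26.0 to 53.8 CPM among controls, against 62.6, 196 and 381 CPM for mutants 1, 2 and 3.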

Additional observations from a re-analysis of the deposited data

How the results depend on the processing

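The 0 calls among Hox genes held under RLE and upper-quartile factors, DESeq2, limma-voom with and without sample weights, both other filters and without haemoglobin and immunoglobulin genes. Of all genes, the edgeR alternatives among these called 2.46% to 7.14% higher and 3.42% to 7.88% lower. Leaving out 1 library gave 0 higher and 0 to 1 lower. Without any single control, 0.0195% to 0.0392% of all genes were higher and 0.581% to 0.636% lower, so 0 Hox calls say little there. Without any single mutant, 4.28% to 13.6% of all genes were higher and 6.17% to 15.3% lower. Without mutants 1 and 2, an alternative chosen after seeing the data, 6 were higher and 1 lower. Of the calls among partners, regulators and neighbours (9 higher, 10 lower), DESeq2 gave 16 higher and 17 lower (10.3% and 11.1% of all genes), limma-voom 16 lower (9.96%), and limma-voom with sample weights 21 higher and 17 lower (9.29% and 9.36%). Leaving out 1 library gave 1 to 24 higher and 0 to 26 lower, the most without mutant 2 (13.6% and 15.3% of all genes), and without mutants 1 and 2 the counts were 38 and 42 (25.7% and 26.9%). The causes were not tested. Of 229 alternative values of the fold changes of 16 Hox genes, 201 kept direction and side of the threshold. Another 21 changed sign, none of those past the threshold. The rest newly passed, all in the fit with 1 mutant except Hoxc4 without mutant 2. Of 284 alternative values of the 19 other genes that passed, 217 kept the call and 67 lost it. Log2 fold changes that changed sign were 0.00038 for Hoxa3 with RLE factors and 0.017 without a filter. With sample weights they were 0.12 for Hoxa3, 0.23 for Hoxb5 and 0.13 for Hoxb7. Without mutants 1 and 2 they were -0.23 for Hoxa2, 0.13 for Hoxa3, 0.54 for Hoxb5 and 0.31 for Hoxb7. With 1 library left out, the range was -0.19 to 0.44 for Hoxa2, -0.0939 to 0.13 for Hoxa3, -0.0804 to 0.45 for Hoxa4, -0.38 to 0.49 for Hoxb4, -0.49 to 0.15 for Hoxb5, -0.49 to 0.0974 for Hoxb7, -0.18 to 1.46 for Hoxb8 and -0.0651 to 1.002 for Hoxb9. No paired analysis was possible because the labels give the groups no shared replicate numbers. The counts of most Hox genes limit what could be detected, and 14 of the 31 members were below the filter.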
